A study of Mus musculus with 11 samples.

Results

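The 7 transmitter phenotype genes examined here set which fast transmitter a neuron makes, packages or recaptures. They were the GABA-synthesizing enzymes *Gad1* and *Gad2*, the vesicular transporter of GABA and glycine *Slc32a1*, the neuronal glycine transporter *Slc6a5*, and the vesicular glutamate transporters *Slc17a6* (VGLUT2), *Slc17a7* (VGLUT1) and *Slc17a8* (VGLUT3). The members were chosen by name, and all 7 were found among 21755 protein-coding genes on chromosomes 1 to 19 and X. For each gene, H3K27me3 peaks were read over the 2 kb either side of its annotated 5′ end, called the start window below, and over the gene body. Coordinates are GRCm38 (mm10). Both measures are the percentage of bases under a peak.

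H3K27me3 CUT&Tag was performed on wild-type C57BL/6J mouse forebrain, and each library was made from about 100000 nuclei. The 11 samples were 2 from the medial (MGE), 3 from the caudal (CGE) and 3 from the lateral ganglionic eminence (LGE), and 3 from the cortex (CTX), which was dissected as somatosensory cortex. In CGE, LGE and CTX, the titles give a pair of samples the same replicate number, and the study describes 2 biological replicates per region. The study places this assay at E12.5, and the labels' protocol, which gives no age per sample, names E12.5 and E14.5 embryos. They also mention that nuclei of the 4 regions were combined in equal amounts, while every sample bears the name of only 1 region. Samples of a region were merged before peak calling, so that each region was represented by 1 peak list. The values therefore have no replicate error and no test, and a difference between lists is a description of those lists.

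H3K27me3 is deposited by Polycomb repressive complex 2 and is found over genes that are held silent, many of which have CpG-rich promoters. In bulk tissue the mark is averaged over progenitors and young neurons, and a peak does not say in which cells it lies. Most neurons born in the ganglionic eminences become GABAergic, while the projection neurons born in the cortex become glutamatergic. The comparison of the 3 eminences with CTX asked whether genes of the GABA and glutamate phenotypes carried the mark differently in the regions that give rise to these neurons. A gene was called higher in the eminences when the lowest of the 3 eminences exceeded CTX by at least 10 percentage points, and higher in CTX when CTX exceeded the highest eminence by the same margin.

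The lists held 15384 to 19196 peaks and covered 24.5 to 32.9 Mb, with MGE the smallest and CGE the largest. The median −log10 q was lowest in MGE at 3.38 and highest in CGE at 4.61. Peak lists hold no counts of reads, and no interval from counting is given. Of the genes that mark the regions, *Emx1*, a cortical transcription factor, was called higher in the eminences, with 98.9% to 100% of its start window covered there and 87.1% in CTX. *Lhx6*, an MGE factor, had 69.2% in MGE and 100% in the other lists. *Dlx2*, expressed in all 3 eminences, had less coverage in MGE only, with 41.6% in CTX, against 16.4% (MGE), 44.8% (CGE) and 41.4% (LGE). *Nkx2-1*, the factor that specifies MGE, was 100% covered in all 4 lists including MGE, and *Neurod6*, a cortical neuron gene, was free of peaks in every list. The marker genes thus did not separate every list in the direction of its label.

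The sequences just upstream of 6 of the transcription starts are shown, and the part of each under peaks is given below them. The calls rest on the start window and the gene body, not on these stretches. They are the 250 bases before the RefSeq 5′ end (GRCm38.p6, 5′ to 3′), with each CpG site in capitals (the letters CG, which read the same on both strands).
Gad1, chr2:70561879-70562128, plus strand: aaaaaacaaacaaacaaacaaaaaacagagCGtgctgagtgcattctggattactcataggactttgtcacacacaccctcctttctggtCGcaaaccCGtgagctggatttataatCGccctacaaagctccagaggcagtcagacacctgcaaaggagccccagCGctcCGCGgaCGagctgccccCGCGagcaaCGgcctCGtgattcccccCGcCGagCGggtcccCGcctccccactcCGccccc
Gad2, chr2:22622077-22622326, plus strand: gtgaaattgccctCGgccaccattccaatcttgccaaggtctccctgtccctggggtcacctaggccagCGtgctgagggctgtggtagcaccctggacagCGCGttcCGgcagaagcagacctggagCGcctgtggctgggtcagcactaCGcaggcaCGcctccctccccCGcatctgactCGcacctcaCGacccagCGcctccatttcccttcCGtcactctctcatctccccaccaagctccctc
Slc32a1, chr2:158610508-158610757, plus strand: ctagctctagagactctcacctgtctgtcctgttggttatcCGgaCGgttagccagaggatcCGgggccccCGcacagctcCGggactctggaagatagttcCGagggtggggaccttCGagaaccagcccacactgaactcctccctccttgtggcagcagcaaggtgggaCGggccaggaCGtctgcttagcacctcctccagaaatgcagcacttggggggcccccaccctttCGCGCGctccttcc
Slc6a5, chr7:49910049-49910298, plus strand: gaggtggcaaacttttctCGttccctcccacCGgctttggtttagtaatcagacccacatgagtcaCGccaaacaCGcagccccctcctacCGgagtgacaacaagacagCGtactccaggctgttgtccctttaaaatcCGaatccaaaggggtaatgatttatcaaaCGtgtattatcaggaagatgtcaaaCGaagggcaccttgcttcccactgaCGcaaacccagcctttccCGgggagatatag
Slc17a6, chr7:51621580-51621829, plus strand: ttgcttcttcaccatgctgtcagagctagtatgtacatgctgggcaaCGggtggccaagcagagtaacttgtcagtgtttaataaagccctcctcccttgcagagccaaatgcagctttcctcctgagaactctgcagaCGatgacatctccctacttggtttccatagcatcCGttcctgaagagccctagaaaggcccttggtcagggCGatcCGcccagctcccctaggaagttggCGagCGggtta
Slc17a8, chr10:89621250-89621499, minus strand: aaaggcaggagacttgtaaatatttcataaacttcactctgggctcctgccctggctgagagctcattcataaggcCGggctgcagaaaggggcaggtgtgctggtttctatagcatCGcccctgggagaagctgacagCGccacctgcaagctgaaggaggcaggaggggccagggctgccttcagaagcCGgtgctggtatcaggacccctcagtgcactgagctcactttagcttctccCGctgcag
The promoters of *Gad1*, *Gad2* and *Slc32a1* lay wholly under peaks in all 4 lists. They held 17, 13 and 12 CpG sites respectively, against a median of 6 over 32619 RefSeq promoters of the same length, of which 92.2% held at least 1. The first *Slc6a5* promoter, shown above, held 11 sites and had no base under a peak in any list. The promoter of the other RefSeq start of *Slc6a5* (chr7:49911450-49911699) was covered to 65.2% in CTX, against 69.6% (MGE), 42.4% (CGE) and 38.4% (LGE). The first *Slc17a6* promoter, with 7 sites, was 75.6% covered in MGE, 83.6% in CGE and 44.4% in LGE, and had no covered base in CTX. The promoter of its other RefSeq start (chr7:51624387-51624636) was wholly covered in all 4 lists. The first *Slc17a8* promoter, with 5 sites, was wholly covered in CGE and CTX and had no covered base in MGE or LGE, and that of its other RefSeq start (chr10:89599816-89600065) had no covered base in any list. All 7 members matched the RefSeq table.

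Peaks lay on the start windows of 6 of the 7 genes in at least 1 list, against 39.1% of all genes. A base under a peak was found in the start windows of 6 members in CTX (32.5% of all genes), 5 in MGE (29.1%), 6 in CGE (30.3%) and 5 in LGE (30.2%). For 5 members this held in all 4 lists, against 23.4% of all genes. Only *Gad2* and *Slc32a1* were marked, meaning that at least 50% of the start window was covered, and they were marked in every list. The shares of all genes marked were 10.9% (CTX), 9.76% (MGE), 12.3% (CGE), 10.2% (LGE) and 7.54% (all 4 lists). Gene bodies held a peak in 6 members in MGE and LGE and in 7 in CGE and CTX, against 32.3%, 33.6%, 33.9% and 36% of all genes in MGE, LGE, CGE and CTX. The body of every member had a covered base in at least 1 list (43.5% of all genes), and 6 had one in all 4 (26%). No member was called higher in the eminences over the start window (2.05% of all genes), and *Gad2* and *Slc17a8* were called higher in CTX (3.94%). Over the gene body no member was called in either direction, where 0.483% of all genes were higher in the eminences and 0.763% higher in CTX.

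**Figure D1:**
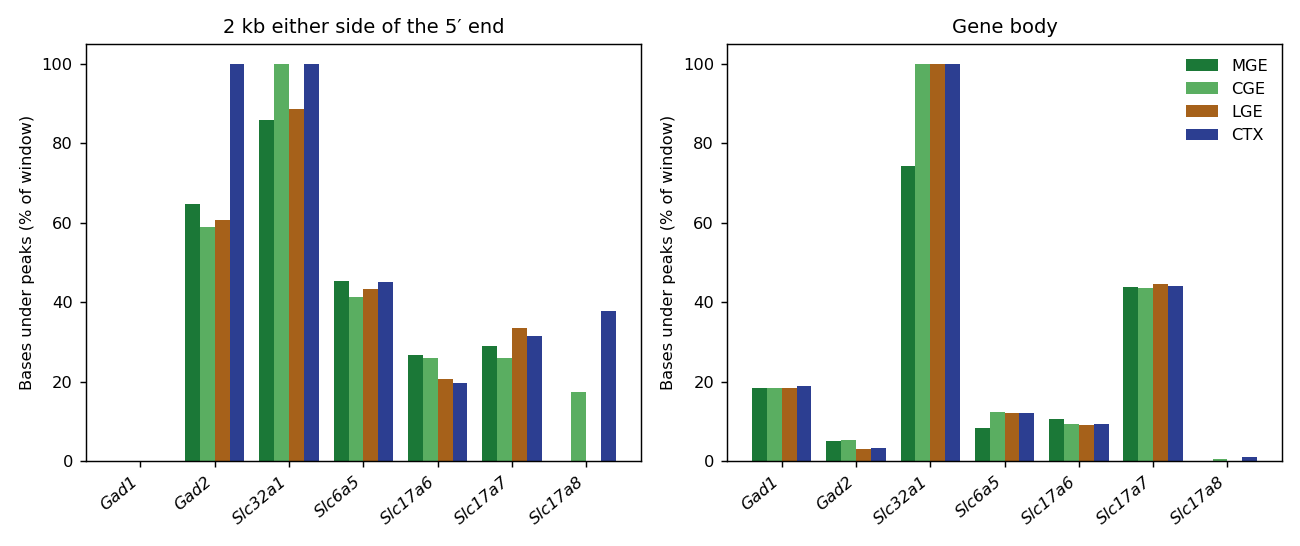
Percentage of bases under H3K27me3 peaks in each list (MGE, CGE, LGE, CTX) over the start window (left) and the gene body (right) of the 7 genes; each bar is a single merged list, with no error. *Gad2* and *Slc17a8* have their tallest start window bar in CTX at 100% and 37.8%, whereas the gene body bars of most genes are near one another.

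*Gad2* (chr2:22622205-22693874, plus strand) encodes the GABA-synthesizing enzyme found mainly at axon terminals, and it gave the largest difference between the eminences and CTX among the members. Its start window was covered to 100% in CTX, against 64.8% (MGE), 58.9% (CGE) and 60.8% (LGE). CTX lay apart from the 3 eminences, and the mean of the eminences minus CTX was −38.5 points. The difference was entirely upstream of the gene: the first 2 kb of the gene were 100% covered in every list, whereas the 2 kb upstream were covered to 100% in CTX, against 29.6% (MGE), 17.7% (CGE) and 21.6% (LGE).

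The outlines of the *Gad2* peaks differed mainly upstream. The peak over the 5′ end reached 2997 bases upstream in CTX, against 593 (MGE), 354 (CGE) and 432 (LGE). CGE and LGE each had a separate small peak further upstream, from base −2760 to −2258 relative to the 5′ end in CGE and from −2802 to −2418 in LGE, within the stretch that the CTX peak covered without a break. MGE had none there. Of the peaks in the same list, 49.1% had a lower −log10 q than this CGE peak and 19.2% had a lower one than this LGE peak. When peaks less than 3 kb apart were joined, the start window was 100% covered in CGE, LGE and CTX and 64.8% in MGE, and *Gad2* was no longer called. It was also no longer called at the transcript with the highest coverage in each list, where CTX had 100% and MGE 92.3%. With the upstream 2 kb alone, *Gad2* and *Slc17a8* were both higher in CTX, as were 3.24% of all genes. On the downstream side the order was different, with the peak ending 2433 bases into the gene in CTX, against 3567 (MGE), 3526 (CGE) and 2111 (LGE). Over the whole gene body, coverage was 3.39% in CTX, against 4.98% (MGE), 5.40% (CGE) and 2.95% (LGE). A stretch of 2465 bases around the 5′ end lay under peaks in all 4 lists.

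*Gad1* (chr2:70553072-70602014, plus strand) encodes the other GABA-synthesizing enzyme, and its start window had no base under a peak in any list. That window lies at the outermost annotated 5′ end (chr2, base 70553072 in GRCm38), which is the start of a single transcript that spans 14162 bases of the gene. The coding transcript that reaches the gene's 3′ end begins 8970 bases further in, and the RefSeq 5′ end 9057 bases further in. A wide peak covered this inner start in every list. It began 8068 bases from the outer 5′ end in CTX, 8074 in MGE, 8220 in CGE and 8222 in LGE, and was 9237, 9074, 9067 and 8979 bases wide in the same order. Each of these peaks held 1208 exonic bases, and the rest was intronic.

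The window of 2 kb either side of the RefSeq 5′ end of *Gad1*, an alternative added after the data were seen, was covered to 74.8% in CTX, against 74.6% (MGE), 71% (CGE) and 70.9% (LGE). CTX and MGE were close to each other, as were CGE and LGE, and no eminence lay 10 points from CTX. With RefSeq 5′ ends, 3 members were marked in each list, while of 16433 genes with such an end 10.6% (CTX), 9.49% (MGE), 12.1% (CGE), 9.87% (LGE) and 7.24% (all 4 lists) were marked. No member was then higher in the eminences (2.15% of these genes), and *Gad2* and *Slc17a8* were again higher in CTX (4.14%). The shift from no base to a marked window in all 4 lists was seen in 22 of these genes (0.134%). Of the bases at the locus under a peak in any list, 96.6% were in all 4, the highest share among the 7 genes. The antisense gene *Gad1os* runs from 70489940 to 70563357 and overlaps the start of this peak, so the peak cannot be assigned to either gene alone.

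**Figure D2:**
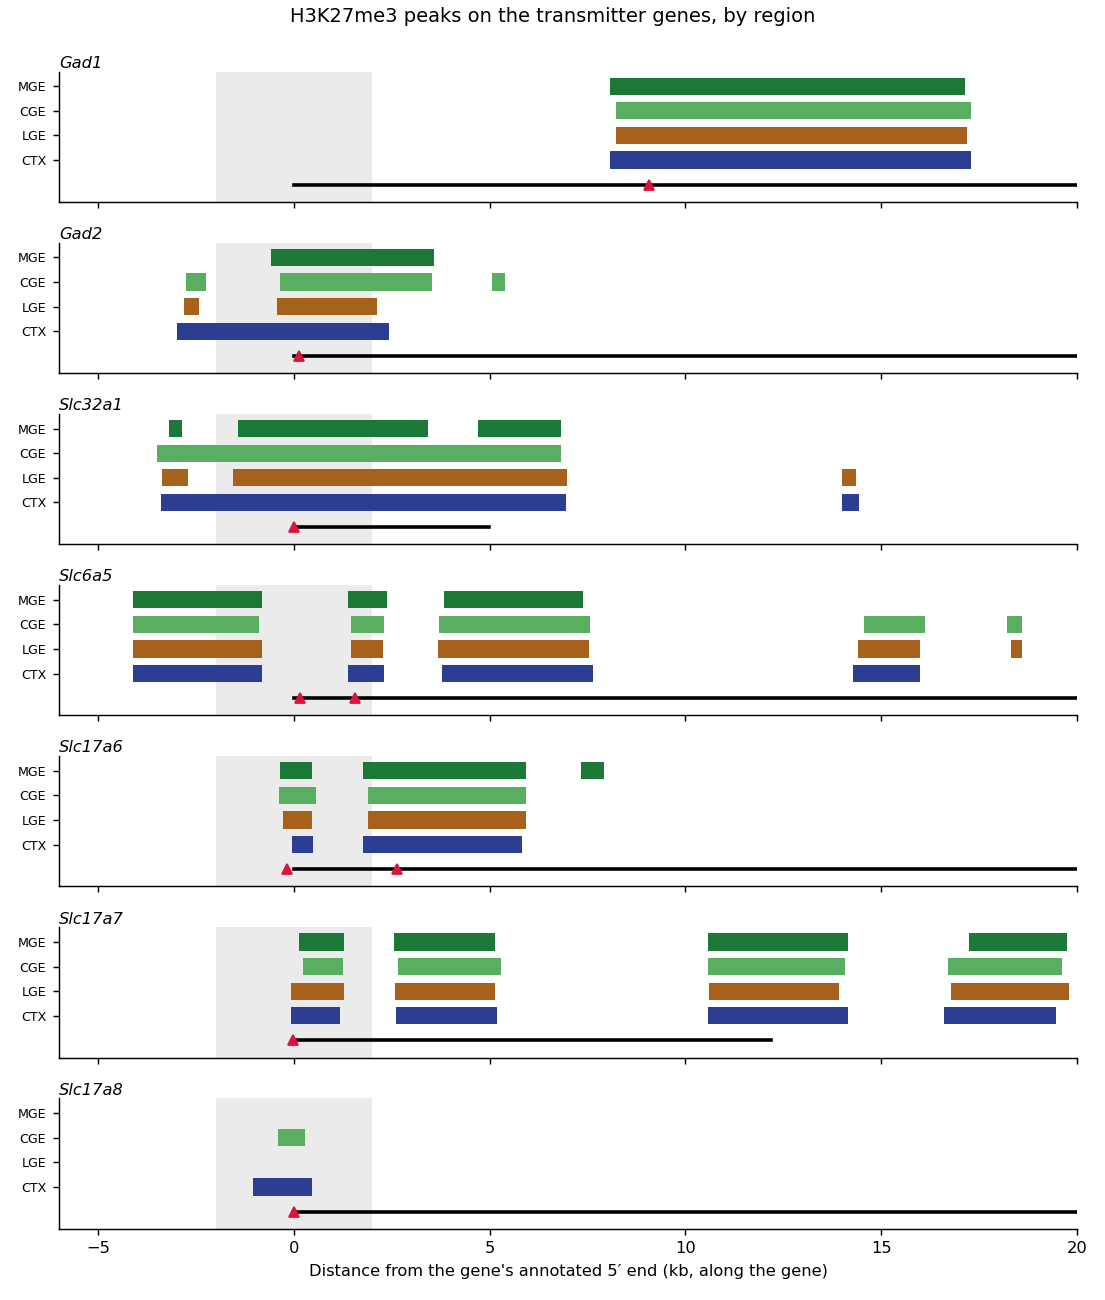
H3K27me3 peaks in each list drawn as bars against the distance in kb from the annotated 5′ end of each gene, with the start window in grey, the gene as a black line (drawn to 20 kb) and RefSeq 5′ ends as red triangles. The *Gad1* peaks begin about 8 kb into the gene in all 4 lists, and the *Gad2* peak extends to 2997 bases upstream in CTX alone.

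*Slc32a1* (chr2:158610767-158615748, plus strand) loads GABA and glycine into synaptic vesicles and was the most widely covered member. Its start window was covered to 100% in CTX, against 85.8% (MGE), 100% (CGE) and 88.6% (LGE). MGE and LGE were thus lower than CGE and CTX, and the eminences did not lie together. CGE and CTX were also the lists with the most covered bases, at 32.9 and 31.2 Mb, against 24.5 (MGE) and 26.4 (LGE). The part of list size in this split was not tested. The mean of the eminences minus CTX was −8.54 points, and the gene was not called. Single peaks of 10298 bases in CGE and 10343 in CTX spanned the whole 4982-base gene. In LGE a peak of 8512 bases covered the gene and a separate peak of 680 bases lay upstream. In MGE the same region was divided among 3 peaks of 333, 4849 and 2109 bases, and 74.3% of the gene body was covered against 100% in the other lists. The gene overlaps the antisense gene *Gm14205*, and *Gm14204* begins just upstream of it on the opposite strand.

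*Slc6a5* (chr7:49910146-49963856, plus strand) takes glycine back into glycinergic terminals, which lie mainly in the brainstem and spinal cord. Its start window was covered to 45.1% in CTX, against 45.4% (MGE), 41.2% (CGE) and 43.4% (LGE), and CTX lay within the range of the eminences. The 5′ end itself lay in a gap. The upstream peak ended 807 bases before the 5′ end in MGE, LGE and CTX and 904 before it in CGE, and the next peak began 1381 to 1459 bases into the gene. A further peak, starting 3689 to 3838 bases in, was also present in every list. Peaks beginning 14270 bases into the gene in CTX, 14565 in CGE and 14411 in LGE had no counterpart in MGE, where gene body coverage was 8.45% against 12.1% (CTX), 12.3% (CGE) and 12.2% (LGE). These peaks lay in introns, with 45.4% of CGE peaks, 61.5% of LGE peaks and 65% of CTX peaks having a lower −log10 q.

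*Slc17a6* (chr7:51622006-51671119, plus strand), the vesicular glutamate transporter of many subcortical and of young cortical neurons, was the only member with more coverage in the mean of the eminences than in CTX over the start window. At the transcript with the highest coverage the sign turned, with a mean of the eminences minus CTX of −2.40 points. Its start window was covered to 19.7% in CTX, against 26.6% (MGE), 25.9% (CGE) and 20.8% (LGE). All 3 eminences lay above CTX, LGE the least, and the mean difference of 4.73 points was below the margin for a call. The excess in the eminences was in the upstream part, where 2.95% of the 2 kb were covered in CTX, against 18.2% (MGE), 19.2% (CGE) and 14.3% (LGE). Over the first 2 kb of the gene CTX was instead the highest, at 36.5% against 35% (MGE), 32.6% (CGE) and 27.2% (LGE). Taken alone, the upstream 2 kb would be called higher in the eminences, as were those of 1.54% of all genes. The peak over the 5′ end reached 59 bases upstream in CTX, against 365 (MGE), 385 (CGE) and 287 (LGE). It was also the weakest in CTX relative to its own list, with 83.8% of MGE peaks, 82.9% of CGE peaks, 75% of LGE peaks and 67.3% of CTX peaks having a lower −log10 q. By contrast, a second peak, beginning 1765 to 1906 bases into the gene and ending 5816 to 5931 bases in, was close to equal in the 4 lists, at 4052 bases in CTX, against 4155 (MGE), 4026 (CGE) and 4020 (LGE). A total of 337 bases of the locus lay under peaks in all 3 eminences and not in CTX. They lay partly upstream of the 5′ end and partly at the inner edge of the second peak. That peak ended 5816 bases into the gene in CTX, against 5925 (MGE), 5931 (CGE) and 5925 (LGE).

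*Slc17a7* (chr7:45163949-45176142, plus strand), the main vesicular glutamate transporter of mature cortical projection neurons, had close values in the eminences and CTX. Its start window was covered to 31.6% in CTX, against 28.9% (MGE), 26% (CGE) and 33.6% (LGE). Its gene body was covered to 44.1% in CTX, against 43.8% (MGE), 43.5% (CGE) and 44.5% (LGE). CTX lay within the range of the eminences in both. Each list had 3 peaks on the gene, and the one over the 3′ end was among the strongest of its list: 99.3% of MGE peaks, 99.1% of CGE peaks, 99.7% of LGE peaks and 99.5% of CTX peaks had a lower −log10 q. This peak ran 1734 to 1959 bases past the end of the gene.

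*Slc17a8* (chr10:89574020-89621253, minus strand), a vesicular glutamate transporter found in scattered groups of neurons that also use other transmitters, had a peak at its 5′ end in CGE and CTX only. Of all genes, 0.878% had a covered base anywhere in the start window in CGE and CTX only. The *Slc17a8* start window was covered to 37.8% in CTX, against 0% (MGE), 17.4% (CGE) and 0% (LGE). The eminences did not lie together, and the mean of the eminences minus CTX, −32 points, rested on a CTX peak of 1513 bases and a CGE peak of 698. Both had a low −log10 q, of 2.37 in CGE and 2.53 in CTX, and only 26.9% and 34.8% of peaks in their lists had a lower one. Their fold enrichment was not low, at 2.77 in CGE and 2.98 in CTX, the latter the highest among the peaks at the members. Neither peak remained at a q-value under 0.001 or when all lists were limited to equal covered bases, and the call was then lost. It was also lost in a window of 5 kb on each side, where coverage was 6.98% in CGE and 15.1% in CTX. The nearest peak was 125620 bases away in MGE and 177063 in LGE.

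Peak strength, as the percentage of peaks in the same list with a lower −log10 q, gave a further reading of the same peaks. For the strongest peak at *Gad1* (RefSeq window), the value was 88.5% in CTX, against 78.9% (MGE), 79.1% (CGE) and 83.6% (LGE). For *Gad2* it was 92.4% in CTX, against 85.5% (MGE), 83.4% (CGE) and 91.1% (LGE), and for *Slc32a1* 90.8%, against 74.2%, 82.7% and 86.6% in the same order. The *Slc32a1* value in MGE is of 1 part of a divided region. A stronger MGE peak there, at 84.7%, lay outside the start window, whereas a single peak spanned both parts in the other lists. In all 3 of these GABA genes the CTX percentage was the highest. The fold enrichment of these peaks, a ratio given by the peak caller, had another order. For *Gad2* it was lowest in CTX, at 2.14 against 2.50 (MGE), 2.21 (CGE) and 2.71 (LGE). For *Slc32a1* it was also lowest in CTX, at 1.75 against 1.77, 1.78 and 1.91. For *Gad1* the CTX ratio of 1.76 lay within the range of the eminences, 1.67 to 1.88. The other genes are given by −log10 q again. In *Slc6a5* the CTX value of 89.5% lay within the range of the eminences, in *Slc17a6*, where the strongest peak was the second, the CTX value of 91.8% was the lowest, and in *Slc17a7* the CTX value of 78.5% lay within the range. In the window at the RefSeq 5′ end of *Slc17a6*, the CTX value was also 91.8%, against 94.3% (MGE), 82.9% (CGE) and 75% (LGE). These values are of unlike peaks, because the second peak entered this window in MGE and CTX only. The CGE and LGE values are of the peak over the 5′ end, so no order is read from them. A CTX value at either end of the order was common. Among 5099 start windows with peaks in all 4 lists, CTX ranked above all 3 eminences in 34.7% and below all 3 in 26%. With RefSeq windows, the shares were 34.3% and 26.3%.

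**Figure D3:**
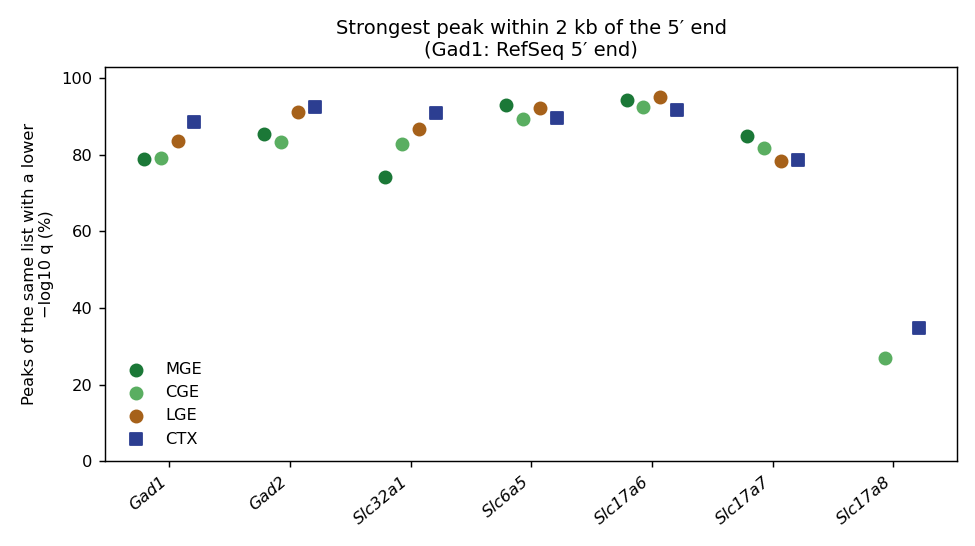
Percentage of peaks in the same list with a lower −log10 q than the strongest peak in the start window of each gene (RefSeq 5′ end for *Gad1*); circles are MGE, CGE and LGE and squares are CTX, 1 point per merged list. CTX is the highest point for *Gad1*, *Gad2* and *Slc32a1*, and *Slc17a8* has points in CGE and CTX only, at 26.9% and 34.8%.

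The members differed in CpG content. The ratio of observed to expected CpG in the start window was 0.543 for *Gad2*, 0.576 for *Slc32a1* and 0.543 for *Slc6a5*, against a median of 0.373 over all genes and 0.483 over genes marked in all 4 lists. It was 0.383 for *Slc17a6*, 0.397 for *Slc17a7*, 0.291 for *Slc17a8* and 0.210 for the outer *Gad1* window, and genes with no covered base in any list had a median of 0.259. The stretch of 8926 bases at the inner *Gad1* start that lay under peaks in all 4 lists had a ratio of 0.519.

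Coverage patterns along the start window were compared with those of all other protein-coding genes in 100-base bins over the 4 lists, and the 3 genes with the smallest mean absolute difference were taken as most alike. For *Gad2* these were *Cited1*, *Igfbpl1* and *Fa2h*, with mean differences of 3.09, 4.31 and 5.06 points. All 3 had 94.2% to 100% coverage in CTX and 54.4% to 70.5% in the eminences. For *Slc32a1* they were *Gm4881*, *Hoxa6* and *Hs3st4* (0.725 to 1.58 points), all with 100% in CGE and CTX and less in MGE and LGE. For *Slc6a5* they were *Prox1*, *Gfy* and *Hoxb5* (9.79 to 13.5 points), for *Slc17a6* *Nr1d2*, *Ptgr1* and *Deup1* (7.21 to 7.84), for *Slc17a7* *Irak3*, *Foxred2* and *Egfl6* (3.86 to 4.76), and for *Slc17a8* *Zdhhc24*, *Col6a5* and *Rtf1* (4.46 to 5.09).

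Genes that work beside the members were read the same way. Among 22 genes of amino acid transmitter metabolism and uptake, a start window base was covered in all 4 lists in 12 (23.4% of all genes). In all 4 lists 3 were marked (7.54%). None was called higher in the eminences (2.05%) and 2 were higher in CTX (3.94%). Among these was *Slc6a12*, a betaine and GABA transporter, with no covered base in the eminences and 10.4% in CTX. The genes of this list with the most coverage in their lowest list included the GABA transporter *Slc6a11*, at 72.2% to 77% across the lists, and the glutamate transporters *Slc1a1*, at 63.5% to 64.4%, and *Slc1a2*, at 55.8% to 67.8%. *Gls2*, a glutaminase, had 41% to 46.1%.

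Among 15 genes for other transmitters, 8 had a covered start window base in all 4 lists (23.4% of all genes). In all 4 lists 5 were marked (7.54%), and none was called in either direction. The serotonin transporter *Slc6a4* had 95.8% to 99% of its start window covered, the vesicular acetylcholine transporter *Slc18a3* 71.5% to 98%, the dopamine transporter *Slc6a3* 65.1% to 68.2%, *Pnmt*, which makes adrenaline, 59.4% to 67.5%, and the noradrenaline transporter *Slc6a2* 59% to 61%.

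The transcription factors that direct the GABA and glutamate fates were covered more widely than the members. Among 16 GABAergic and glycinergic factors, all had a covered start window base in every list (23.4% of all genes) and 11 were marked in all 4 (7.54%). The median coverage was 91.5% in CTX, against 73.9% (MGE), 90.2% (CGE) and 84.7% (LGE). The medians over the 7 members were 37.8% in CTX, against 28.9% (MGE), 26% (CGE) and 33.6% (LGE), and the median over all genes was 0% in each list. *Lhx8*, an MGE factor of cholinergic neurons, was higher in CTX at 100% against 66% to 76.7%. *Gsx1* and *Gata2* were 100% covered in every list, *Lbx1* at least 98.4%, *Ptf1a* at least 92.3% and *Sp9* at least 91.5%.

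Of 16 glutamatergic factors, 9 were marked in all 4 lists (7.54% of all genes). In this list 4 start windows were called higher in the eminences (2.05%) and none in CTX (3.94%). *Pax6*, a factor of cortical progenitors, had 42.5% in CTX, against 100% (MGE), 86.5% (CGE) and 82% (LGE). *Neurog2*, which directs glutamatergic neurogenesis, had 51.9% in CTX, against 92.9%, 92.5% and 63.5% in the same order. *Fezf2*, a factor of deep-layer projection neurons, had 22.4% in CTX, against 58.5%, 58.7% and 36.2%, and with *Emx1* was also higher in the eminences over its gene body (0.483% of all genes). *Atoh1*, a hindbrain factor with 82.5% to 91.5% of its start window covered, was higher in CTX over its gene body only (0.763% of all genes), at 100% against 77.3% to 77.9%. *Neurog1*, *Tlx3* and *Eomes* were 100% covered over the start window in all 4 lists. The counts of calls in this list and among the members, 4 of 16 and 0 of 7 higher in the eminences, stand beside 2.05% of all genes and were not tested against each other.

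**Figure D4:**
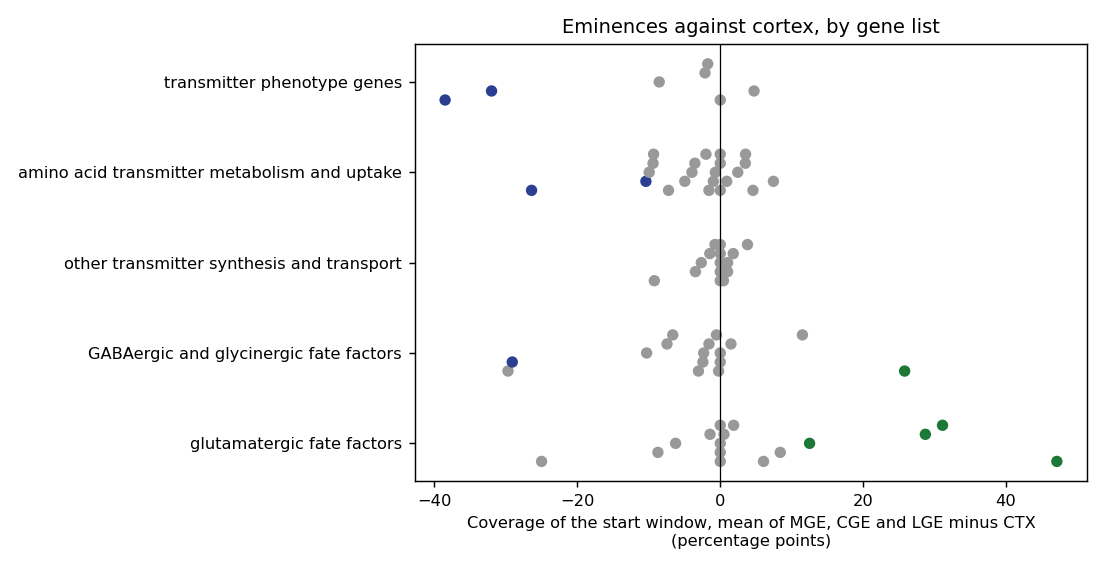
Start window coverage, mean of MGE, CGE and LGE minus CTX in percentage points, for each gene of the 5 lists (1 point per gene, offset vertically for clarity); green points were called higher in the eminences, blue points higher in CTX, and grey points were not called. The transmitter phenotype genes extend from −38.5 (*Gad2*) to 4.73 (*Slc17a6*), whereas the glutamatergic factors reach 47.1 (*Pax6*).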

How the data were processed

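H3K27me3 CUT&Tag was measured in 11 samples from 4 regions, grouped by the region in their labels (2 MGE, 3 each of CGE, LGE and CTX). The authors aligned reads to GRCm38 (mm10) with Bowtie2, removed blacklisted reads and, with Picard, duplicates, merged the replicates with SAMtools and called broad peaks with MACS. Tool versions, and any control used by MACS, are not given in the sources used here. The deposited fold enrichment (a ratio) entered no call and is given only for single peaks of *Gad1*, *Gad2*, *Slc32a1* and *Slc17a8*. The deposited score, which MACS derives from the peak's significance, was not used, and the deposited −log10 q-value was used to rank and filter peaks. The largest q was 0.0994. Peak lists hold no depth, and the read totals that the study gives per replicate were not used here.

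Coverage was computed in Python 3.11.15 (numpy 2.4.6, pandas 2.3.3) over GENCODE M21 genes of GRCm38, with positions counted from 1, and was checked on simulated peaks. Sequences came from RefSeq (GRCm38.p6). The members and gene lists were chosen with earlier results of these data known. Named genes were the members, the called genes of each list with up to 5 most covered in every list, the 3 most alike per member, and overlapping genes. Alternatives were a q-value under 0.001, joined peaks, lists of equal number or equal covered bases, upstream 2 kb, 5 kb windows, the transcript with the highest coverage, other thresholds and, added after seeing the data, RefSeq 5′ ends. Peaks on the mitochondrial genome were left out. Some genes that this rule names entered the counts and are not reported here.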

Additional observations from a re-analysis of the deposited data

How the results depend on the processing

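No replicate could be left out, since each list was called on merged samples. No paired analysis was possible because the replicates of a region were merged into 1 list before peaks were called. Of 84 differences of members between the eminences and CTX under the alternatives, 76 moved by less than 10 points and 8 by more. None of at least 10 points changed sign, and 4 smaller ones did, to −2.40 (*Slc17a6*) and 0.242 (*Slc17a7*) at the transcript with the highest coverage, and for *Slc6a5* to 0.0467 with 5 kb either side and to 1.58 over the gene body with joined peaks. The RefSeq 5′ ends, added after seeing the data, left every count within 1.5 times. The call of *Slc17a8* as higher in CTX was lost at a q-value under 0.001, with equal covered bases and with 5 kb either side, and that of *Gad2* was lost with joined peaks, leaving 1 member higher in CTX each time. With joined peaks, 4 members were marked in MGE and CGE and 5 in LGE and CTX (10.5% to 13.2% of all genes). With the upstream 2 kb alone, 4 were marked in CTX (7.14% of all genes) and 1 (*Slc17a6*) was called higher in the eminences, as also when 1 point made a call. A call at 25 points left 1 higher in CTX. Among the alternatives, shares of all genes called were computed for the upstream 2 kb and the RefSeq 5′ ends only. The counts of calls under the other alternatives therefore have no background beside them. At the transcript with the highest coverage, 5 members were marked in every list (12.1% to 15.1% of all genes) and 1 was higher in CTX. With 80% needed for a marked window, 1 was marked in MGE, CGE and LGE each (1.87% to 2.61% of all genes). With any 1 base, 5 were marked in MGE and LGE and 6 in CGE and CTX. Lists of equal number moved no count beyond 1.5 times. Why the values moved was not tested, except where an alternative's own construction removes peaks or widens windows. The MGE list had the lowest median −log10 q. CGE and CTX, the lists with the most covered bases, were also those with more coverage at *Slc32a1* and *Slc17a8*. The part of depth in coverage was not tested for any list.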
